A study of Drosophila melanogaster with 6 samples.

Results

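The genes described here encode the proteins of the mitochondrial ribosome in Drosophila melanogaster. They were taken as the rows of the deposited expression table whose symbol begins with mRpL (large subunit) or mRpS (small subunit), which gave 69 of 15741 entries: 45 for the large and 24 for the small subunit, going by their names. RNA was sequenced from whole wandering larvae in the last instar, raised at 25 °C, in pools of more than 20 animals. The larvae came from 3 genotypes at 2 stages: clear gut, the later part of wandering, and blue gut, the earlier part. Each of the 6 combinations is 1 library, so no group has a replicate and the spread between pools is unknown.

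The genotypes were larvae with a short hairpin RNA against Cmi, larvae with a short hairpin RNA against Trr, and wild type. Both hairpins were expressed through the GawB69B Gal4 driver, a line known for expression in the ectoderm and imaginal discs, so cells in which the driver is silent are not depleted. Which stock served as wild type, and whether it carried the driver, is not said in the labels. Cmi (gene Lpt) and the methyltransferase Trr (gene trr) act together in one COMPASS-like complex, which marks histone H3 at enhancers.

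Mitochondria descend from bacteria and keep a ribosome of their own. In animals its RNAs are transcribed from mitochondrial DNA, whereas its proteins are encoded in the nucleus, made in the cytoplasm and imported. It translates the few proteins that mitochondrial DNA still encodes, all of them subunits of the respiratory chain and ATP synthase, so its subunits are needed wherever cells respire. Many of its proteins have a bacterial counterpart of the same number, and many of the others are additions found in mitochondria. By their numbers 39 of the 69 genes carry names used for bacterial proteins (L1 to L36, S1 to S21) and 30 carry higher numbers. This split goes by number only, and a higher number alone does not show that a protein lacks a bacterial counterpart.

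Levels are RPKM, read counts divided by gene length and by the reads of the library, so that levels of genes can be compared as far as the length in the table fits the transcripts. That length differs by over 20% from the longest annotated transcript for 5 of the 69 genes, named at the end. In every library most of the 69 genes lay in a narrow band of 10 to 30 RPKM. The genes in that band numbered 55, 57 and 55 at clear gut in Cmi depletion, in the library labelled Trr depletion and in wild type, and 57, 58 and 55 at blue gut in the same order of genotypes. The highest by mean was mRpS5, the counterpart of bacterial protein S5, which helps keep decoding accurate. It was listed at 73.9 RPKM in Cmi depletion, 76.0 RPKM in the library labelled Trr depletion and 69.3 RPKM in wild type at clear gut, and at 60.0, 56.1 and 50.5 RPKM in the same genotypes at blue gut. The next was mRpL28 with a mean of 44.7 RPKM over the 6 libraries, followed by mRpL52 with 29.1 RPKM, mRpL33 with 28.6 RPKM and mRpS7 with 28.1 RPKM. mRpS7 is the counterpart of bacterial S7, a protein that binds ribosomal RNA early in assembly of the small subunit.

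**Figure D1:**
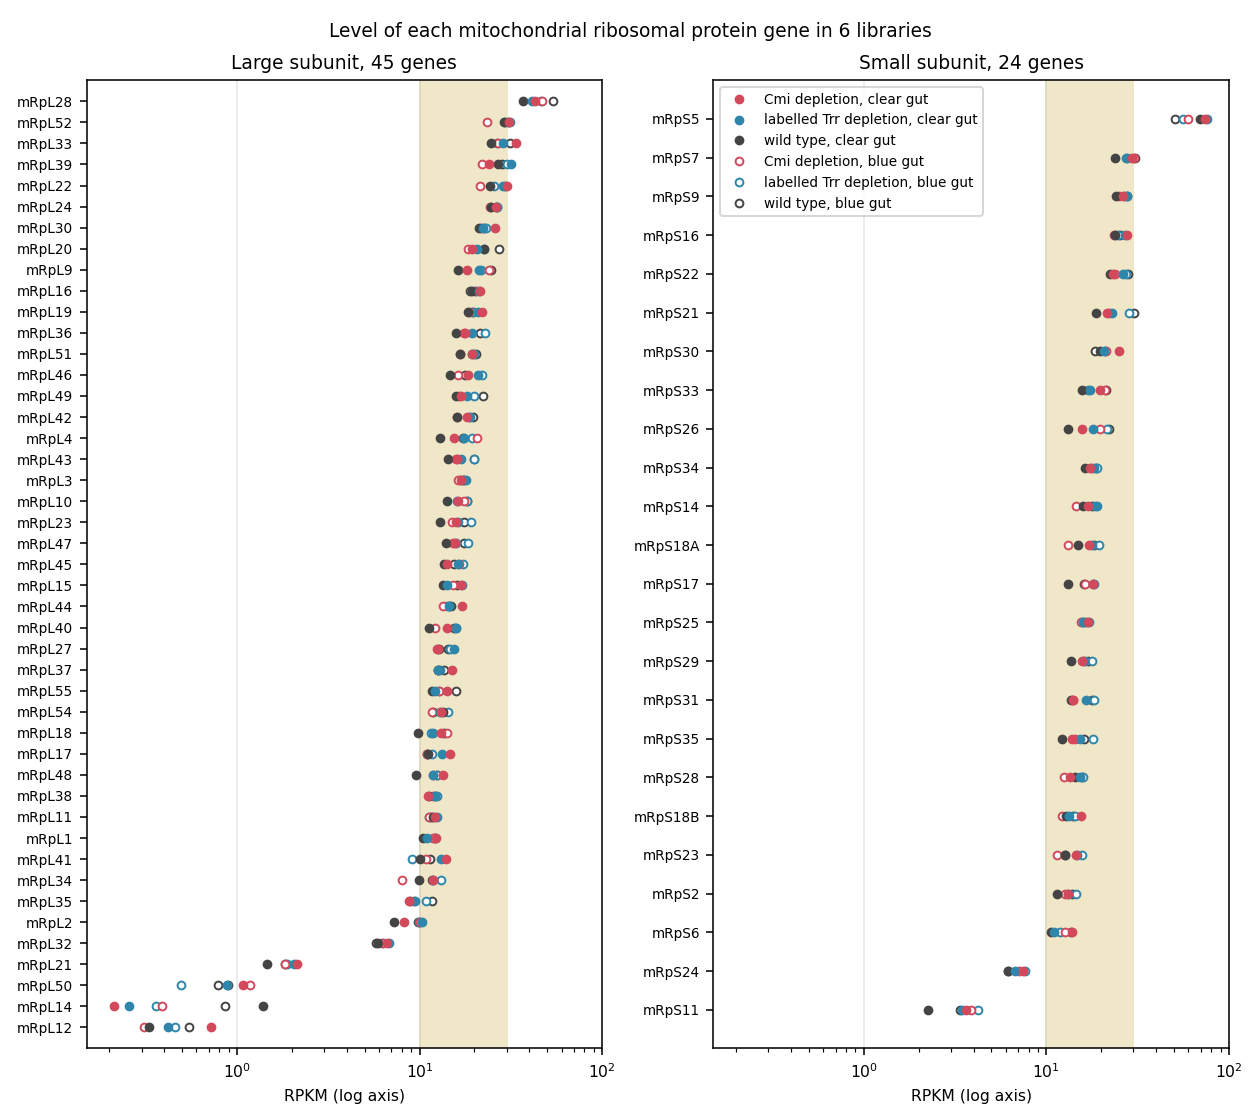
RPKM on a log axis of each of the 45 genes named for the large subunit and 24 named for the small, ordered by mean. Each library is 1 point (filled at clear gut, open at blue gut), and the band of 10 to 30 RPKM is shaded. Most genes fall in the band in every library, mRpS5 and mRpL28 lie above it, and mRpL21, mRpL50, mRpL14 and mRpL12 lie far below it.

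At the low end, 5 genes were listed with mean levels of 3.45 RPKM (mRpS11), 1.87 RPKM (mRpL21), 0.886 RPKM (mRpL50), 0.577 RPKM (mRpL14) and 0.464 RPKM (mRpL12). mRpL12 is the counterpart of the bacterial stalk protein that recruits elongation factors, and mRpL14 that of a protein at the interface of the subunits. No gene of the set was at 0 RPKM in any library. Among the genes for cytoplasmic ribosomal proteins, which every growing cell uses, 8 of 86 also had a mean below 1 RPKM, among them RpS2 with 0.146 RPKM. A low value in this table therefore stands also at genes that larvae need in quantity, and what made it low was not tested.

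The order of the genes by level was nearly the same in all libraries. Spearman's rho of the 69 levels between libraries was 0.914 to 0.970, with a median of 0.939 over the 15 pairs of libraries; this is across genes, which share lengths and libraries and are no replicates. The genes were split into subunits by name only, and which subunit each protein sits in was not checked. The summed level of the mRpL genes over that of the mRpS genes was 1.54 in each clear gut library. At blue gut it was 1.54 in Cmi depletion, 1.56 in the library labelled Trr depletion and 1.63 in wild type.

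The genes with enough signal to be tested varied little between the libraries. Of the 69 genes, 66 had a mean of at least 1 RPKM and entered the test, while mRpL50, mRpL14 and mRpL12 did not. Among those 66 the highest library exceeded the lowest by a factor of 1.09 to 1.86, with a median of 1.33, and 9 of them exceeded 1.5. The 3 genes left out of the test rest on few reads and varied more, mRpL14 by a factor of 6.52. For the 66 genes the SD of log2(RPKM + 1) over the 6 libraries had a median of 0.14, against 0.32 over all 11467 genes tested. All 66 lay below that median of all genes. The 58 genes with a mean of 10 to 30 RPKM had a median SD of 0.14, and all of them lay below the median of 0.31 of the 3625 tested genes in that band. Cytoplasmic ribosomal protein genes had a median SD of 0.15 (78 tested) and nuclear genes of the respiratory chain and ATP synthase 0.34 (87 tested). For 8 translation factors of mitochondria it was 0.16, and for 15 mitochondrial tRNA synthetases 0.15. For 11 genes for replication and transcription of mitochondrial DNA it was 0.14, so a low spread was not particular to the ribosomal genes. Differences between these lists were not tested.

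**Figure D2:**
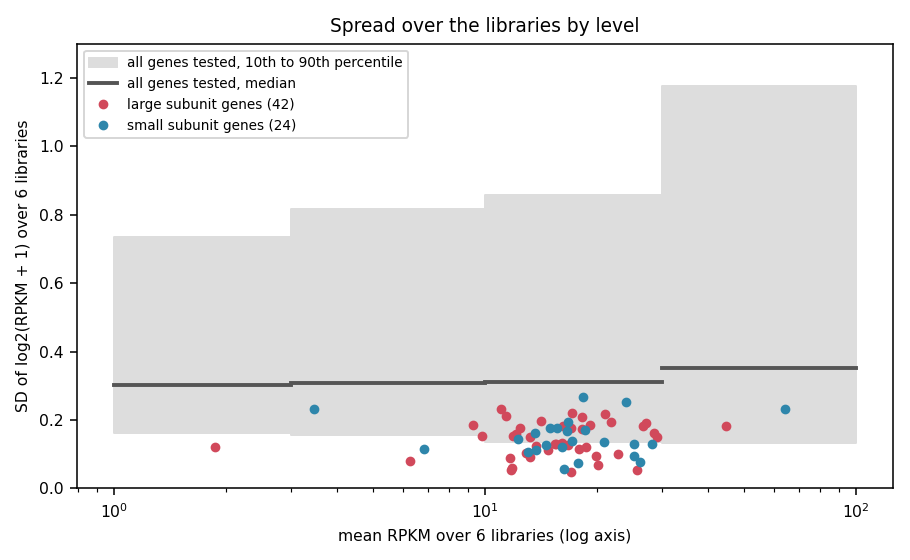
SD of log2(RPKM + 1) over the 6 libraries against mean RPKM (log axis) for the tested genes, 42 named for the large subunit and 24 for the small. The grey bands give the 10th to 90th percentile and the lines the median of all genes tested in bands of mean RPKM. All 66 points lie below the median line of their band.

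Per gene and library the tested members rested on 36 to 2629 reads, with a median of 318, recovered from libraries of 23.087 to 25.012 M reads on genes. As a check of the labels, Lpt had 5.11 RPKM in Cmi depletion and 6.66 RPKM in wild type at clear gut, and 4.44 and 5.57 RPKM in the same genotypes at blue gut. trr had 4.76 RPKM in the library labelled Trr depletion and 6.19 RPKM in wild type at clear gut. At blue gut trr had 3.60 RPKM in the library labelled Trr depletion and 2.93 RPKM in wild type, so it was not lower under that label. In this pair of libraries 71.1% of all genes tested were higher in the one labelled Trr depletion, and whether this bears on the value of trr was not tested. Whole larvae include cells in which the driver is silent, so these values cannot settle whether trr was depleted where the driver acts. limma called neither Lpt nor trr changed in its own depletion. Marker genes of muscle, midgut, fat body and imaginal discs differed between the stages, while limma called 0 of 6 salivary gland and 0 of 9 testis markers (0 and 1 at an unadjusted p below 0.05). Summed over 10 muscle genes, RPKM was 131, 601 and 342 at clear gut in Cmi depletion, the library labelled Trr depletion and wild type, against 2555, 1975 and 2322 at blue gut. The sum over 10 midgut genes was 2523 to 2835 RPKM in the clear gut libraries, against 17945 to 21398 RPKM at blue gut, and the sum over 8 imaginal disc genes was 115.1 to 134.6 RPKM, against 46.3 to 67.7 RPKM. Fat body genes (6) summed to 28317 to 35758 RPKM at clear gut, against 46183 to 55011 RPKM at blue gut, but singly 4 of them fell and 1, Fbp1, rose (limma). Salivary gland genes (6) were lowest in Cmi depletion, at 2455 RPKM at clear gut and 5553 RPKM at blue gut, where the other 4 libraries held 8916 to 21790 RPKM.

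The comparison of clear gut with blue gut asks how these genes differ between the later and the earlier part of wandering. In RPKM as deposited, most of them differed little. limma (genotype and stage as additive terms, Benjamini-Hochberg adjustment over all genes at 0.05) called 1 of the 66 genes higher at clear gut, mRpS5, and 0 lower, where 24.2% of all genes tested were called higher, 11.1% lower and 35.3% in all. At an unadjusted p below 0.05 (limma) stood 2 of the 66, mRpS5 and mRpS26. That count depended on the scaling: it was 25 of 66 once libraries were scaled by median ratios, and 17 of 66 once they were quantile normalized. As deposited, the median log2 change of the 66 genes was -0.05, with 10th and 90th percentiles of -0.21 and 0.09. The median of all genes tested was 0.15. Genes named for the large subunit had a median of -0.04 (42 genes) and those named for the small subunit -0.07 (24 genes). Genes with numbers used for bacterial proteins had a median of -0.02 (37 genes) and those with higher numbers -0.07 (29 genes). Because these are whole larvae, fewer cells of a type and less RNA per cell cannot be told apart. The shifts in tissue markers given above run with the stage, and their part in these values was not tested.

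mRpS5 was higher at clear gut in each genotype, and its 3 clear gut libraries lay above its 3 blue gut libraries without overlap. The ratio of its RPKM was 1.23 in Cmi depletion (95% counting interval 1.16 to 1.31), 1.36 in the libraries labelled Trr depletion (1.28 to 1.44) and 1.37 in wild type (1.29 to 1.46). The fitted log2 change was 0.39 with an SE of 0.11 (limma, adjusted p = 0.0454). The call stands close to the threshold. It was lost when libraries were scaled by median ratios (log2 change 0.17, adjusted p = 0.374), with quantile normalization (0.30, adjusted p = 0.0897), and when any 1 library was left out (adjusted p 0.0916 to 0.208). It was also lost without both libraries labelled Trr depletion (adjusted p = 0.203). Without either wild-type library limma called 0 genes of the whole table between the stages.

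mRpS26, a protein with no bacterial counterpart, had the largest fitted decrease of the set. It stood at 15.7 RPKM in Cmi depletion, 17.9 RPKM in the library labelled Trr depletion and 13.2 RPKM in wild type at clear gut, and at 19.7, 21.4 and 22.0 RPKM in the same genotypes at blue gut. All 3 clear gut values lay below all 3 blue gut values. The log2 change was -0.42 with an SE of 0.14, which missed the threshold (limma, adjusted p = 0.0825). Scaled by median ratios it was called lower, with a log2 change of -0.63 (limma, adjusted p = 0.0365).

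mRpL28 and mRpL4 were also lower at clear gut in all 3 genotypes. mRpL28 had 42.6 RPKM in Cmi depletion, 41.2 RPKM in the library labelled Trr depletion and 36.9 RPKM in wild type at clear gut, against 47.1, 46.5 and 53.8 RPKM in the same genotypes at blue gut. These groups did not overlap. mRpS5, mRpS26 and mRpL28 are named for their stage differences, so their lack of overlap is no added support. How many of all genes tested separate in this way was not counted. mRpL4, whose bacterial counterpart lines the tunnel through which the new protein leaves, had 15.5, 17.4 and 13.0 RPKM at clear gut in Cmi depletion, the library labelled Trr depletion and wild type, against 20.5, 19.3 and 17.4 RPKM at blue gut. Here the clear gut value of the library labelled Trr depletion lay just above the blue gut value of wild type. Neither passed the threshold as deposited (limma, adjusted p = 0.168 for mRpL28 and 0.119 for mRpL4).

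In all, 16 of the 66 genes were lower at clear gut in all 3 genotypes and 6 were higher in all 3, where 19.3% of all genes tested were lower and 46.9% higher in all 3. Ranked by the smallest of their 3 differences, the 8 leading lower genes were mRpS26, mRpL28, mRpL4, mRpL35, mRpL10, mRpL45, mRpS11 and mRpS35. The 6 higher genes were mRpS5, mRpL44, mRpL32, mRpL11, mRpL16 and mRpL17. Outside mRpS5 the smallest of their 3 log2 differences was 0.01 to 0.03. mRpL11, the counterpart of a protein at the site where elongation factors bind, had 12.2, 12.5 and 11.8 RPKM at clear gut in Cmi depletion, the library labelled Trr depletion and wild type, and 11.3, 11.3 and 11.5 RPKM at blue gut.

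**Figure D3:**
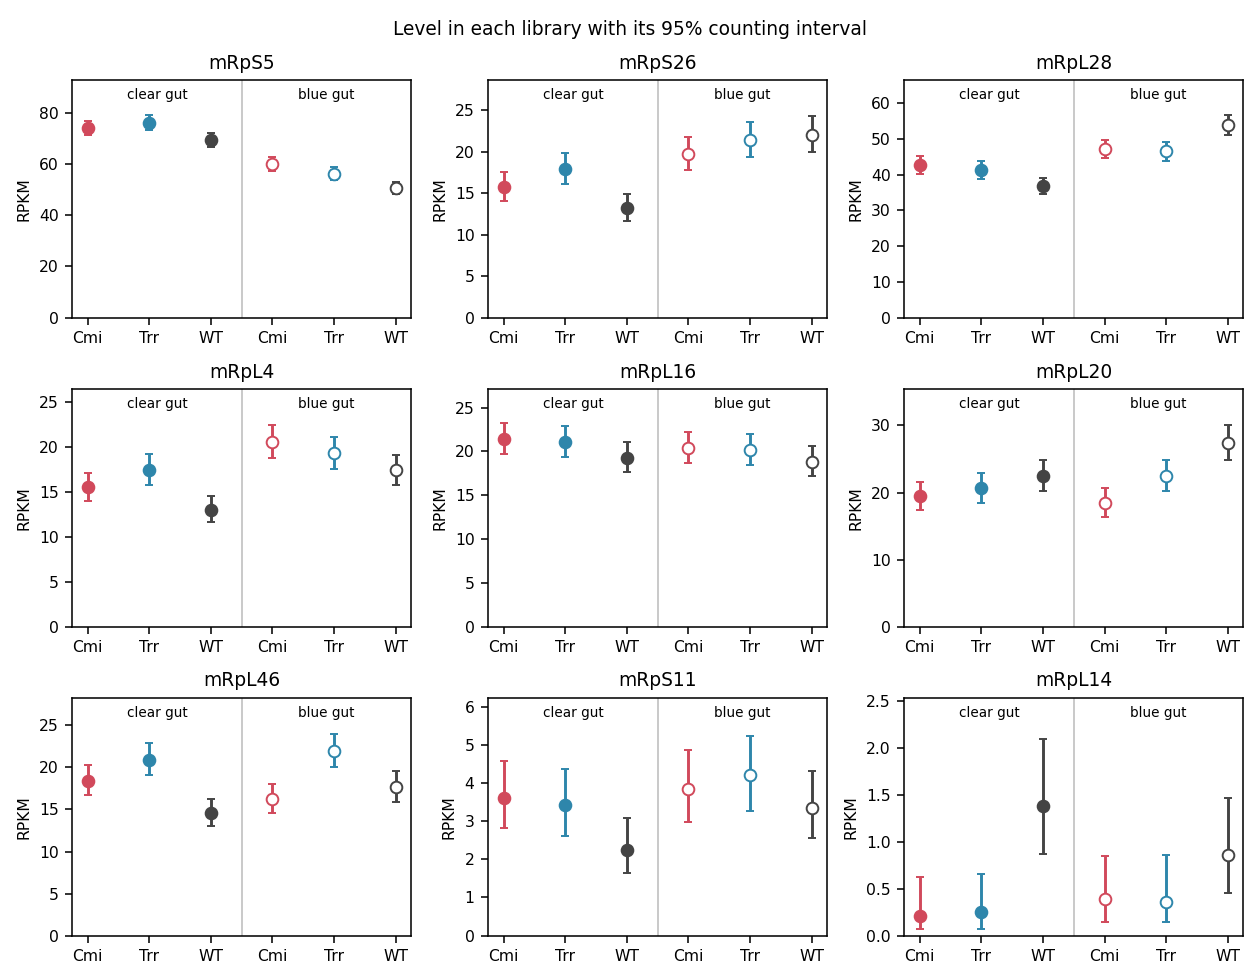
RPKM of 9 named genes in each library, clear gut left of blue gut and the depletions left of wild type, with 95% counting intervals as bars; the axis starts at 0. mRpS5 is higher at clear gut in each genotype, mRpS26 and mRpL28 are lower, mRpL16 stays at 18.8 to 21.4 RPKM, and mRpL14 is higher in wild type at both stages.

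The stage difference was not the same in the libraries of each genotype. In Cmi depletion 47 of the 66 genes were higher at clear gut than at blue gut, with a median log2 difference of 0.09 (72.1% of all genes tested were higher, median 0.31). In the libraries labelled Trr depletion 25 of 66 were higher, with a median of -0.05 (all genes: 60.7%, median 0.12). In wild type 10 of 66 were higher, with a median of -0.25 (all genes: 56.1%, median 0.12). None of the 66 differed 2-fold or more between the stages in any genotype, where 19.0% of all genes did in Cmi depletion, 13.6% in the libraries labelled Trr depletion and 24.1% in wild type. In each genotype the median of the 66 genes lay below that of all genes. With 1 library a group, the difference between genotypes has no test, and an effect of genotype cannot be told from variation between pools.

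Scaling changed the sign of the first of these medians and the distance from 0 of the others. After median-ratio scaling the median log2 stage change of all genes tested was -0.05 in place of 0.15, and that of the 66 genes was -0.27 in place of -0.05. Within genotypes the medians of the 66 were then -0.23 in Cmi depletion, -0.21 in the libraries labelled Trr depletion and -0.41 in wild type, with 8, 3 and 2 genes higher at clear gut. Those of all genes were 0.01, -0.03 and -0.03 in the same genotypes. Under this scaling limma called 1334 genes of the table higher and 1456 lower at clear gut, where 2777 and 1275 were called as deposited. The 10 most abundant genes took 11.8% to 13.4% of the reads at clear gut, against 17.8% to 19.4% at blue gut.

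**Figure D4:**
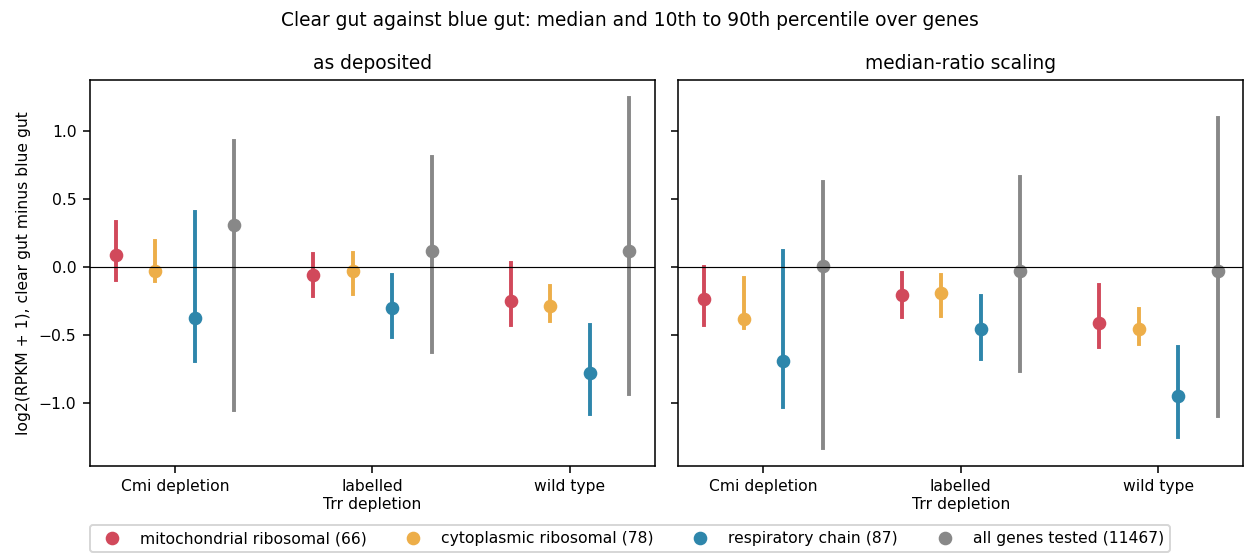
Clear gut minus blue gut on the log2(RPKM + 1) scale in Cmi depletion, the libraries labelled Trr depletion and wild type; points are medians over the genes of a list and bars run over the 10th to 90th percentile, as deposited (left) and after median-ratio scaling (right). The median of the 66 mitochondrial ribosomal genes lies below that of all genes in each genotype and scaling, and above that of the respiratory chain genes.

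Related genes moved differently between the stages. Of 87 nuclear genes of the respiratory chain and ATP synthase, 36 fell at clear gut and 0 rose (limma, adjusted over all genes), where 11.1% of all genes tested were called lower and 24.2% higher. Their median log2 change was -0.46. Among them RFeSP, the Rieske iron-sulphur protein, had 55.4, 61.0 and 51.2 RPKM at clear gut in Cmi depletion, the library labelled Trr depletion and wild type, and 93.6, 93.6 and 117 RPKM at blue gut. Cytochrome c (Cyt-c-p) fell with a log2 change of -0.80 (limma, adjusted p = 0.0106). ND-B14.5A, a complex I subunit listed as CG3621, fell with -0.96 (limma, adjusted p = 0.0215), and COX5B, a complex IV subunit listed as CoVb, with -0.78 (limma, adjusted p = 0.0226). Of 78 cytoplasmic ribosomal protein genes 0 were called either way (1 at an unadjusted p below 0.05), with a median of -0.11. The muscle and midgut markers were lower in the same libraries as the respiratory chain genes, and their part in that fall was not tested.

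The other listed genes for mitochondrial translation and for replication and transcription of mitochondrial DNA gave no call between the stages. A pair of mitochondrial ribosomal protein genes carry other names: tko, which encodes protein S12 of the decoding site and is known for bang-sensitive mutants, and bonsai, which encodes S15. tko had 8.84, 8.19 and 7.32 RPKM at clear gut in Cmi depletion, the library labelled Trr depletion and wild type, and 7.92, 8.24 and 8.25 RPKM at blue gut. bonsai stayed between 20.3 and 24.4 RPKM over the 6 libraries. limma called 0 of 8 translation factors of mitochondria in the stage comparison (1 at an unadjusted p below 0.05), with a median log2 change of -0.06, 0 of 15 mitochondrial tRNA synthetases (0 at that p), with -0.03, and 0 of 11 genes for replication and transcription of mitochondrial DNA (0 at that p), with 0.07. Of all genes tested, 24.2% were called higher and 11.1% lower. The elongation factor mEFTu1, listed as EfTuM, stayed at 32.3 to 40.3 RPKM, and TFAM, which packages mitochondrial DNA, at 28.1 to 34.7 RPKM.

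Single calls stood in 2 further short lists, 1 of 6 genes and 1 of 5, where 24.2% of all genes tested were called higher. Among 6 mitochondrial chaperones and proteases ClpX, an unfoldase listed as CG4538, rose at clear gut: it had 70.3, 69.6 and 76.7 RPKM in Cmi depletion, the library labelled Trr depletion and wild type, and 44.0, 42.7 and 35.2 RPKM at blue gut (limma, log2 change 0.82, SE 0.14, adjusted p = 0.0149). Of 5 regulators linked to mitochondrial gene expression or growth, ewg, the fly relative of mammalian NRF1, rose with a log2 change of 0.93 (limma, adjusted p = 0.0181). Dref and srl, the fly relative of PGC-1, did not pass the threshold, with log2 changes of 0.41 and 0.35 (limma, adjusted p = 0.0700 and 0.219).

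For Cmi depletion against wild type limma called 0 of the 66 genes in either direction and none had an unadjusted p below 0.05; 0.105% of all genes tested were called. The median log2 change of the 66 genes was 0.03, and that of all genes 0.13. The single values differed by stage. At clear gut 58 of the 66 genes were higher in Cmi depletion than in wild type, with a median log2 difference of 0.19 (68.0% of all genes tested were higher, median 0.12). At blue gut 12 of 66 were higher, with a median of -0.10 (all genes: 57.8%, median 0.08). None reached a 2-fold difference, where 5.64% of all genes did at clear gut and 4.05% at blue gut. With median-ratio scaling the medians became -0.01 at clear gut (all genes -0.07) and -0.14 at blue gut (all genes 0.04). With quantile normalization they were 0.09 at clear gut (all genes 0.05) and -0.18 at blue gut (all genes 0.01). Under each scaling the median of the 66 genes thus lay above that of all genes at clear gut and below it at blue gut.

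The same pattern can be read from the wild-type library at clear gut. It held the lowest of the 6 values for 37 of the 66 genes and the highest for none, whereas it held the lowest value for 24.4% and the highest for 12.1% of all genes tested. The summed level of the 69 genes was 1202, 1211 and 1059 RPKM at clear gut in Cmi depletion, the library labelled Trr depletion and wild type, and 1118, 1229 and 1237 RPKM at blue gut. The sum over 10 testis markers was 117, 101 and 65.2 RPKM at clear gut in the same genotypes, and 82.8, 118 and 99.98 RPKM at blue gut. Like the ribosomal genes, the testis markers were thus lowest in wild type at clear gut and next lowest in Cmi depletion at blue gut. The order of the other libraries differed. Wild type at blue gut was highest for the ribosomal genes, but for the testis markers it lay below both libraries labelled Trr depletion. The highest testis marker alone held 40.5 RPKM in wild type at clear gut and 45.8 RPKM in Cmi depletion at blue gut. The sum over 8 mitochondrial translation factors was lowest in the same libraries, at 100 and 115 RPKM. That over 15 mitochondrial tRNA synthetases was also lowest in wild type at clear gut, but next lowest in wild type at blue gut. The same held for 11 genes for replication and transcription of mitochondrial DNA, at 124.8 and 125.0 RPKM. The sum over 86 cytoplasmic ribosomal protein genes was lowest in Cmi depletion at clear gut, at 53671 RPKM. The part of the testis markers in these values was not tested. All comparisons of a depletion with wild type share the wild-type library at clear gut and 1 wild-type library at blue gut.

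Members that differed the same way at both stages numbered 12 higher and 8 lower in Cmi depletion, where 41.1% of all genes tested were higher at both stages and 15.3% lower. The higher genes with the largest differences were mRpL4, mRpS24, mRpS30 and mRpS11. mRpL4 had 15.5 RPKM in Cmi depletion and 13.0 RPKM in wild type at clear gut (ratio 1.19, 95% counting interval 1.02 to 1.38), and 20.5 and 17.4 RPKM in the same genotypes at blue gut (ratio 1.18, interval 1.03 to 1.35). The lower genes were led by mRpL20, mRpL39, mRpS28 and mRpL3. mRpL20, whose bacterial counterpart is needed early in assembly of the large subunit, had 19.4 RPKM in Cmi depletion and 22.4 RPKM in wild type at clear gut, and 18.4 and 27.4 RPKM in the same genotypes at blue gut. Its ratio was 0.867 at clear gut (interval 0.745 to 1.01) and 0.673 at blue gut (interval 0.579 to 0.782). None of these was called by limma.

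For the libraries labelled Trr depletion against wild type limma called 0 of the 66 genes, none had an unadjusted p below 0.05, and 0.0523% of all genes tested were called. The median log2 change was 0.09, and that of all genes 0.15. At clear gut 61 of 66 genes were higher than in wild type, with a median log2 difference of 0.19 (65.5% of all genes tested, median 0.11). At blue gut 40 of 66 were higher, with a median of 0.02 (71.1% of all genes, median 0.18). None of the 66 differed 2-fold, where 3.67% of all genes did at clear gut and 3.83% at blue gut. Median-ratio scaling gave medians of 0.03 at clear gut (all genes -0.04) and -0.15 at blue gut (all genes 0.02). At both stages 38 genes were higher and 3 were lower, where 49.6% of all genes tested were higher and 13.0% lower.

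mRpL46, a protein without a bacterial counterpart, had the largest difference kept at both stages. It had 20.9 RPKM in the library labelled Trr depletion and 14.6 RPKM in wild type at clear gut (ratio 1.43, 95% counting interval 1.24 to 1.65), and 21.9 and 17.6 RPKM in the same groups at blue gut (ratio 1.24, interval 1.08 to 1.43). mRpS11, mRpS23 and mRpS17 came next. The 3 lower genes were mRpL20, mRpL44 and mRpL37. mRpL20 was thus below wild type in all 4 depleted libraries, but these comparisons share the wild-type libraries.

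**Figure D5:**
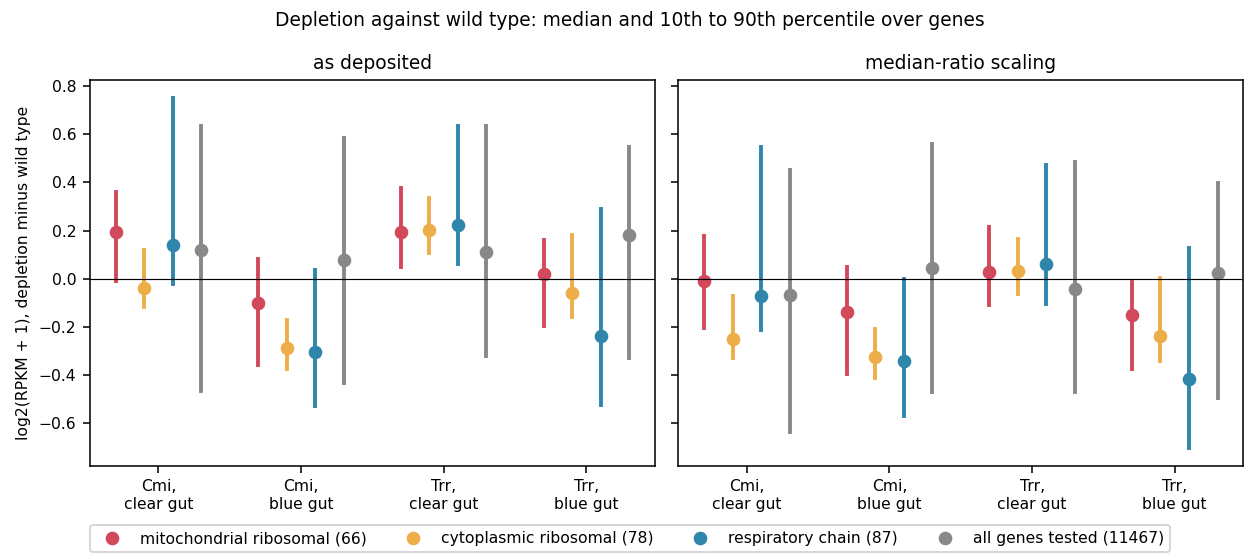
Depletion minus wild type on the log2(RPKM + 1) scale at each stage for Cmi depletion and the libraries labelled Trr depletion; points are medians over the genes of a list and bars run over the 10th to 90th percentile, as deposited (left) and after median-ratio scaling (right). As deposited the medians of the 66 mitochondrial ribosomal genes lie above 0 at clear gut and near or below 0 at blue gut, which median-ratio scaling moves to near 0 at clear gut.

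Between the depletions themselves limma called 0 of the 66 genes and 0.0% of all genes tested. The median log2 change of the libraries labelled Trr depletion over Cmi depletion was 0.08, and that of all genes 0.03. One gene of the set, mRpL39, had an unadjusted p below 0.05. It stood at 31.7 RPKM in the library labelled Trr depletion and 24.0 RPKM in Cmi depletion at clear gut, and at 29.96 and 21.98 RPKM in the same groups at blue gut. Cytoplasmic ribosomal protein genes had a median of 0.22 in this comparison, with 0 of 78 called and 7 at an unadjusted p below 0.05.

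mRpL14 was too low to enter the test. It had 0.213 RPKM in Cmi depletion, 0.255 RPKM in the library labelled Trr depletion and 1.39 RPKM in wild type at clear gut, and 0.388, 0.360 and 0.858 RPKM in the same genotypes at blue gut. Both wild-type values lay above all 4 values of the depleted larvae. These levels rest on 3.5, 4 and 22 reads at clear gut and 6, 5.5 and 13 reads at blue gut. The ratio of Cmi depletion to wild type was 0.153 at clear gut (95% counting interval 0.0440 to 0.517) and 0.452 at blue gut (interval 0.141 to 1.27), and limma without the filter on low values gave a log2 change of -0.70 (adjusted p = 0.4995).

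The 69 genes lie on all the large chromosome arms: 11 on 2L, 11 on 2R, 17 on 3L, 19 on 3R and 11 on X. A close neighbour was common among them. For 49 of the 69 (71.0%) the annotation places the start of another protein-coding gene, read in the opposite direction, within 500 bases upstream, whereas this holds for 3481 of 13945 protein-coding genes (25.0%). Over the 49 the median distance between the starts was 281 bases. mRpS5, the highest of the set, has no such neighbour and lies at chr3L:24537236-24543534 on the plus strand (BDGP6.54), in the part of the arm near the centromere.

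One of these neighbours is trr itself. mRpL16, at chrX:1890256-1891482 on the plus strand, and trr, at chrX:1881313-1889950 on the minus strand, start 306 bases apart. mRpL16, whose bacterial counterpart lies by the peptidyl transferase centre, had 21.4, 21.1 and 19.3 RPKM at clear gut in Cmi depletion, the library labelled Trr depletion and wild type, and 20.4, 20.1 and 18.8 RPKM at blue gut. The ratio of the library labelled Trr depletion to wild type was 1.09 at clear gut (95% counting interval 0.966 to 1.24) and 1.07 at blue gut (interval 0.941 to 1.21). trr had a ratio of 0.769 at clear gut (interval 0.705 to 0.838) and 1.23 at blue gut (interval 1.10 to 1.38) in the same libraries.

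Some values carry a counting limit. Exons of 6 of the 69 genes overlap those of another gene over at least 20% of their length: mRpS24, mRpS21, mRpS14, mRpS9, mRpL17 and mRpL48. The overlap lies with a gene on the opposite strand, apart from 3.76% of the exons of mRpS14, which a gene on the same strand overlaps. The labels do not say that the reads kept their strand, so reads of such pairs cannot be told apart. The length in the table also moves a gene's RPKM in every library alike. It exceeds the longest annotated transcript for mRpL2 (2047 against 1039 bases), mRpL30 (911 against 696 bases) and mRpL47 (1124 against 905 bases), and is below it for mRpS14 (618 against 797 bases) and mRpL21 (1023 against 1696 bases).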

How the data were processed

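The deposited table gives RPKM, calculated by the authors from read counts scaled for gene length and depth, beside a gene length in bases. Per the labels' protocols, oligo dT selected RNA was sequenced on an Illumina HiSeq and aligned with SOAPaligner/SOAP2. Per the submitters' processing notes, Bowtie and the build dm6 were used. For the counting tool and its annotation, the name is not given in the sources used here. A dash was read as 0.

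Of 15741 entries 2307 have no symbol, and 13253 identifiers (84.2%) matched the reference annotation (Ensembl 115, BDGP6.54), which supplied coordinates. Reads were recovered from RPKM, length and depth: 85.5% to 86.2% of the values judged lay within 0.1 of a whole read, and 99.99% to 100% within 0.1 of a whole read or a whole read plus 0.5. Values at a whole read plus 0.5 stood in at least 0.5 of the libraries judged for 12 of the 69 genes and for 17.3% of the table entries judged. Depth was 25.012, 23.876 and 24.154 M reads at clear gut in Cmi depletion, the library labelled Trr depletion and wild type, and 23.579, 23.262 and 23.087 M at blue gut. Counting intervals are exact 95% intervals (Clopper-Pearson for ratios, Poisson for levels) and cover counting error only.

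limma 3.58.1 (R 4.3.3, statmod 1.5.0; trend and robust) was fitted to log2(RPKM + 1) of the 11467 genes averaging at least 1 RPKM, with genotype and stage as additive terms, two-sided, Benjamini-Hochberg at 0.05. Fold changes on this scale understate those of low genes. The 2 residual degrees of freedom (prior 2.75) measure how far a genotype's effect differs between stages, and not the spread between pools. The procedure was tested on simulated data with a stage effect and no genotype effect. That test therefore does not cover effects of a genotype that differ between stages. No p-value exists within a stage. In the results, rose, fell and changed are used only of genes that limma called.

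Named genes were those called by limma, the 8 highest and lowest that differed the same way in all 3 genotypes, the 4 highest and lowest of each depletion that differed the same way at both stages, and the 5 highest and lowest by mean. mRpS21, mRpL2, mRpL30, mRpL47, mRpS9, mRpS14 and mRpL48 are named for their overlap or length, after their values were seen, as were RpS2, mEFTu1, TFAM, Dref, srl and Fbp1. For other lists at most 4 called genes were named. The members and the lists were chosen with earlier results of these data known, so no count over them is independent support. Alternatives changed the pseudocount, filter, scaling, moderation and the libraries used. Mitochondrially encoded genes and mRpL13, mRpL53, mRpS10 and mRpS18C were not analysed here.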

Additional observations from a re-analysis of the deposited data

Results flagged for a closer look

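The median stage difference of the 66 genes had opposite signs in Cmi depletion and wild type: the log2 difference of clear gut minus blue gut was 0.093 in Cmi depletion and -0.25 in wild type. Seen the other way, the median log2 difference of Cmi depletion minus wild type was 0.19 at clear gut and -0.10 at blue gut. Both statements come from the same 4 libraries. The difference was not tested, since each group is 1 library. The medians of all genes tested were 0.31 in Cmi depletion and 0.12 in wild type between the stages. After median-ratio scaling, which moves all genes, the stage medians were -0.23 in Cmi depletion (all genes 0.01) and -0.41 in wild type (all genes -0.03).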

How the results depend on the processing

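Counts of the 66 genes called higher at clear gut came to 0 in place of 1 with no filter on low values, median-ratio scaling, quantile normalization, moderation without trend and robust, entries off whole reads left out, and without both libraries labelled Trr depletion (chosen after seeing the data). They stayed at 1 with a pseudocount of 0.1 RPKM and a mean of at least 5 RPKM. Leaving out each library in turn gave 0 to 0, with an arm then held by a lone sample that is assumed to vary like the others. Genes called lower came to 1 (mRpS26) with median-ratio scaling and 2 (mRpS26 and mRpL4) with quantile normalization. Over all genes tested, 1456 of 11444 were called lower with median-ratio scaling and 1414 of 11467 with quantile normalization. The median stage change was -0.27 and -0.23 under these scalings, and -0.14 (without either Cmi library) to 0.025 (without either wild-type library) with 1 library left out. The median of Cmi depletion against wild type was -0.083 with median-ratio scaling, and -0.075 (without Cmi depletion at clear gut) to 0.15 (without wild type at blue gut) with 1 library left out. The median of the libraries labelled Trr depletion against wild type was -0.075 with median-ratio scaling, and -0.017 to 0.22 with 1 library left out. That of the libraries labelled Trr against Cmi depletion was -0.0086 to 0.14 with 1 library left out. The cause was not tested. In the depletion comparisons no alternative gave a call among the genes. No pairing of replicates was possible because each group is 1 library. Genotype and stage already enter the fit as additive terms, so stages are compared within genotypes. Depth limits mRpL50, mRpL14 and mRpL12, which rest on 3.5 to 22 reads a library.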

Other observations

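Many of the ribosomal genes start head to head with another gene, within 500 bases. Of 46 such neighbours tested, limma called 13 higher and 1 lower at clear gut, where 24.2% of all genes were called higher and 11.1% lower. Their median SD of log2(RPKM + 1) over the libraries was 0.22, against 0.14 for the 66 ribosomal genes, a difference that was not tested. The examples that follow were chosen after their values were seen. CG13698, which starts 430 bases from mRpS26, had 21.9, 23.6 and 25.9 RPKM at clear gut in Cmi depletion, the library labelled Trr depletion and wild type, and 7.02, 7.22 and 6.68 RPKM at blue gut (limma, log2 change 1.64, SE 0.13, adjusted p = 0.00357), while mRpS26 itself was lower at clear gut in each genotype. Taz, which encodes tafazzin, an enzyme that remodels the mitochondrial lipid cardiolipin, starts 20 bases from mRpL18 and rose at clear gut with a log2 change of 1.26 (limma, adjusted p = 0.0200), where mRpL18 had a log2 change of -0.17. ATPsynD, a subunit of ATP synthase 95 bases from mRpL55, had 69.7, 75.4 and 69.4 RPKM at clear gut in Cmi depletion, the library labelled Trr depletion and wild type, and 100.4, 89.7 and 150.6 RPKM at blue gut, without a call (limma, adjusted p = 0.0630). mRpL55 lay at 11.6 to 15.8 RPKM in the same libraries.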
